A study of Mus musculus with 6 samples.

Results

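Proteoglycans are core proteins that carry long sulfated sugar chains, the glycosaminoglycans heparan, chondroitin, dermatan or keratan sulfate. Hyaluronan, the glycosaminoglycan without a core protein, is spun out at the plasma membrane by hyaluronan synthases and cut by hyaluronidases. In the lung these molecules build the alveolar matrix and the basement membrane under the endothelium, line the vessel lumen as the glycocalyx, hold growth factors near the cell surface and bind water. The 45 genes described here, of the 24063 gene symbols in the count files, were listed by name and fall into 8 roles: 9 small leucine-rich proteoglycans, 6 hyalectans and link proteins, 3 basement membrane and secretory granule proteoglycans, 4 syndecans, 6 glypicans, 6 hyaluronan genes, 9 heparan sulfate enzymes and 2 chondroitin sulfate enzymes. No measured value entered the list's rule, but the members were chosen with earlier results of these data known. The shares beside all genes below are therefore descriptions.

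RNA was sequenced from ECs of C57BL6 male mice, 3 libraries per group, each pooled from 2 animals. One group had undergone left pneumonectomy (PNX), after which the remaining lung grows, and was taken on day 7. The other, the sham group, had its chest opened and its lung left in place. The mice carried no transgene that the labels name. The labels give an age of 8 weeks, and the methods an older one. ECs were taken with magnetic beads against CD31, an endothelial surface protein, so that other lung cells carried along with the beads stay in the RNA. In such bulk samples more cells of a type and more RNA per cell cannot be told apart, and this holds for every value that follows. Replicates 1 and 2 of both groups come from an earlier deposit and replicate 3 of both from a later one, and each later library was also the shallowest of its group. Total counts were 29526989 and 33374216 for the later libraries and 65763553 to 81282871 for the earlier ones. Within a group, replicates 1 and 2 differed by little more than counting error (chi-square of 1.57 to 1.75 per degree of freedom, against 67.9 to 86.4 for pairs with replicate 3). They were therefore summed and counted as 1 sample, which leaves n = 2 per group.

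Of the 45 genes, 42 had enough counts to be tested, and 8 of the 42 rose after PNX once each deposit was compared with itself (19.0%, against 3.89% of all genes called higher in the same fit). They were Dcn, Lum, Aspn and Podn among the small leucine-rich proteoglycans, Vcan and its link protein gene Hapln1, and the hyaluronan synthase genes Has1 and Has2. Their fold changes ran from 2.45-fold for Podn to 19.1-fold for Lum in summed counts. Versican, its link protein and hyaluronan together form a water-binding meshwork, and decorin, lumican and asporin bind collagen fibrils. The syndecans, the glypicans tested and the enzymes that build and trim heparan sulfate chains had fitted changes of less than 2-fold. Without that pairing the number depended on the tool. On the same samples edgeR called 0 of the 42 and DESeq2 6, and edgeR on 6 separate libraries called 3. The counts by each tool are set out further on.

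Promoter sequences are shown for 5 members chosen after their values were seen, since position and promoter are what the list's rule did not use. They are the adjacent pair Vcan and Hapln1, Aspn and Ogn from one cluster, and Has1. Other members with a member beside them are not shown. In each, the 250 bases before a listed RefSeq start site are given 5′ to 3′ on the gene's strand (build GRCm38.p6). Capitals mark every match to CANNTG, the E-box. Basic helix-loop-helix factors, among them Twist1, the factor the study follows, bind E-boxes. Vcan, Hapln1, Aspn and Has1 were called higher after PNX, and Ogn was not called.
Vcan, chr13:89742513-89742762, minus strand: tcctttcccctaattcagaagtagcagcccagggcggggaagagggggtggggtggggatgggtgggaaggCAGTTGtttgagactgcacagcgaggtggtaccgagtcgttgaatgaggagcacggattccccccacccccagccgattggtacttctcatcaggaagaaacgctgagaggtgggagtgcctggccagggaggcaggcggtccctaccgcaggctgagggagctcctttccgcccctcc
Hapln1, chr13:89540386-89540635, plus strand: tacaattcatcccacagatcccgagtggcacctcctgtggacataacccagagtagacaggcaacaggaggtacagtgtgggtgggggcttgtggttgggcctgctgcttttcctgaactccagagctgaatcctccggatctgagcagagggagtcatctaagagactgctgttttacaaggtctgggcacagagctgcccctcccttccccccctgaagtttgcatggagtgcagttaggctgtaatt
Aspn, chr13:49544193-49544442, plus strand: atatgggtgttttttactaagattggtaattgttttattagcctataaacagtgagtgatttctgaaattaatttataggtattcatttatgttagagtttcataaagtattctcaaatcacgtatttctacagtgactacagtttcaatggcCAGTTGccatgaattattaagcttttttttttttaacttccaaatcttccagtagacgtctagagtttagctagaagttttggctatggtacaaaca
Ogn, chr13:49607765-49608014, plus strand: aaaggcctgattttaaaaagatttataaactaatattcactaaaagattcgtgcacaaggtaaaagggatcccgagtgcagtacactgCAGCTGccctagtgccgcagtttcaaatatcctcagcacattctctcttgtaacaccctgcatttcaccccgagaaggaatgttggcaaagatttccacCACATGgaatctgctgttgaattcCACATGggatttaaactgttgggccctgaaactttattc
Has1, chr17:17855189-17855438, minus strand: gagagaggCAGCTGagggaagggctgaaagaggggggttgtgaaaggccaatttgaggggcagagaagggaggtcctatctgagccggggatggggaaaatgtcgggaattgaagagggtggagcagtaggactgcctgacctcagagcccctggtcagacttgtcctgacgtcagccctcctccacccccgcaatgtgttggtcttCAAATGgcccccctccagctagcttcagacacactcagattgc

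Vcan held 1 match, beginning 179 bases before the start, and Hapln1 held none in this window. Aspn held 1 match, at −97, and Ogn held 3, at −162, −63 and −39. In Has1 there were 2, at −242 and −43. The gene spans of Vcan, Hapln1 and Has1 begin upstream of the start sites used here. The windows of Vcan and Has1 thus lie within those spans, and that of Hapln1 lies partly within. A RefSeq promoter was at hand for 35 of the 45 members. At the first listed start site of each member, CANNTG occurred in 18 of the 35 (51.4%), against 66.0% of the promoters of 27025 symbols. Agrn had a match only at its second listed start site, at −92. TATAAA, searched on both strands, was present in 8 of the 35 (22.9%), Aspn and Ogn included, against 13.0% of all promoters. CANNTG reads as the same pattern on both strands, and a match to it cannot overlap a match to TATAAA. A match is a run of letters and not a measured binding site. Promoters of Dcn, Lum and Has2 were not among those used here.

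Levels per length, taken as the deposited TPM (transcript reads scaled by length and by library) of the transcript with the most counts, ran among the members from 0 for Gpc5 upward. Bgn and Srgn stood at the top, at a mean of 659 and 575 TPM over the 6 libraries. Bgn encodes biglycan, a small leucine-rich proteoglycan of vessel walls, and Srgn encodes serglycin, which loads the secretory granules of endothelial and blood cells. In sham libraries Srgn (554 ± 0.773 TPM, SD, n = 2) and Bgn (513 ± 102 TPM) did not differ beyond their spread, and the next genes were Prelp (190.1 ± 7.86 TPM), Ogn (175 ± 37.7 TPM), Gpc3 (159 ± 102 TPM) and Hyal2 (128 ± 47.7 TPM), neighbours whose spreads overlapped. After PNX the order was Bgn (819 ± 47.9 TPM), Srgn (593 ± 17.2 TPM), Dcn (404 ± 212 TPM) and Gpc3 (243 ± 138 TPM), of which Bgn and Srgn differed beyond their spread and Srgn, Dcn and Gpc3 did not differ from their neighbours beyond it. Dcn stood at 90.9 ± 54.2 TPM in sham libraries, level with Cd44 (95.7 ± 42.4 TPM) and Sdc3 (87.9 ± 3.34 TPM), and passed Prelp (122 ± 21.1 TPM) and Ogn (98.2 ± 52.5 TPM) after PNX. Of the genes with steep changes, Vcan and Has2 were low in both groups. Vcan stood at 1.30 ± 0.505 and 6.83 ± 0.992 TPM, and Has2 at 0.180 ± 0.139 and 1.48 ± 0.375 TPM in sham and PNX. The 45 members together summed to 2549, 2524 and 2830 TPM in sham replicates 1 to 3 and to 3215, 3221 and 3680 TPM in PNX replicates 1 to 3, and the 9 small leucine-rich proteoglycans accounted for most of that difference, with 912, 918 and 1095 TPM against 1446, 1445 and 1638 TPM.

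**Figure D1:**
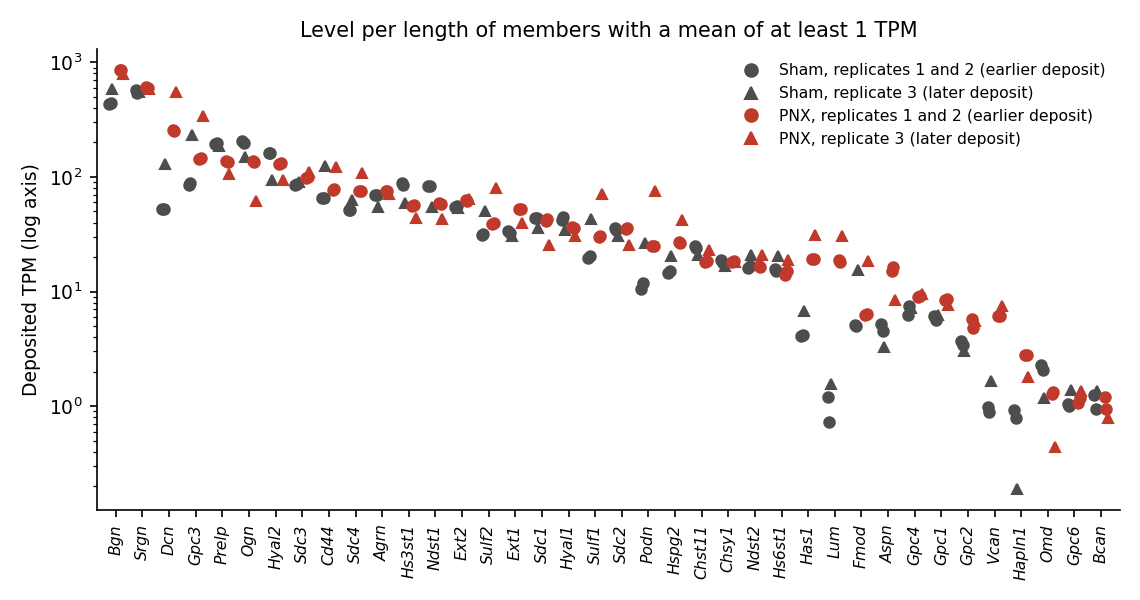
Deposited TPM (log axis) of each member with a mean of at least 1 TPM, in order of the mean, with sham libraries in grey and PNX libraries in red; circles are replicates 1 and 2 and triangles replicate 3. Bgn and Srgn lead in both groups, Dcn, Has1, Lum, Aspn, Vcan and Hapln1 show the red points clear of the grey, and for Dcn, Gpc3, Cd44 and Podn the triangles sit above the circles in both groups.

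Changes between PNX and sham were fitted across all genes with edgeR's quasi-likelihood test, and a gene was called at a Benjamini-Hochberg adjusted p under 0.01 with a log2 fold change beyond 1 in either direction. With 4 samples and no other term, edgeR called 0 of the 42 members and 0 of all 16598 genes tested (0%). The lowest adjusted p of any gene was 0.0720, a value that Lum shares with other genes. At an unadjusted p under 0.05 there were 14 of the 42 members, beside 12.5% of all genes. On the same 4 samples limma-voom called 0 members and DESeq2 called 6 higher (Dcn, Lum, Aspn, Vcan, Has1 and Has2), against 2.91% of the genes to which it gave an adjusted p. With the deposit as a replicate block, so that each deposit's PNX sample was set against its own sham sample, edgeR called 8 of the 42 higher (19.0%), against 3.89% of all genes. In the same fit 0 members were called lower, against 1.23% of all genes. At an unadjusted p under 0.05 in that fit, 22 of the 42 were higher, against 17.7% of all genes, and 7 were lower, against 17.9% of all genes. These 2 shares are the background of every count at an unadjusted p with the block that follows. DESeq2 with the block called 8 higher, against 3.6% of the genes to which it gave an adjusted p, and 0 lower. Taking the 6 libraries as separate replicates, edgeR called Lum, Vcan and Has1 (7.14% of the members tested against 2.28% of all genes called higher), and 0 of them without sham replicate 1 or 2 or PNX replicate 1 or 2, 4 members without sham replicate 3 and 2 without PNX replicate 3. Values with the block rest on 1 residual degree of freedom before edgeR shares the spread across genes. Nothing in the labels says that the libraries of a group came from separate experiments, so the p-values measure the spread between these samples, which may be technical.

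In single libraries, all 3 PNX values lay above all 3 sham values for 18 of the 42 members (42.9%), against 18.8% of all genes. All 3 lay below for 5 (11.9%), against 17.9% of all genes, and the groups overlapped for the remaining 19. The fitted log2 fold change was positive for 27 of the 42 and negative for 15, with a median of 0.24 without or with the block, beside −0.01 over all genes tested. Without PNX replicate 3 and without the block the median of the members was 0.084. Of the 42, 36 had the same sign in both deposits, with a median log2 ratio of 0.23 in the earlier and 0.24 in the later one.

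**Figure D2:**
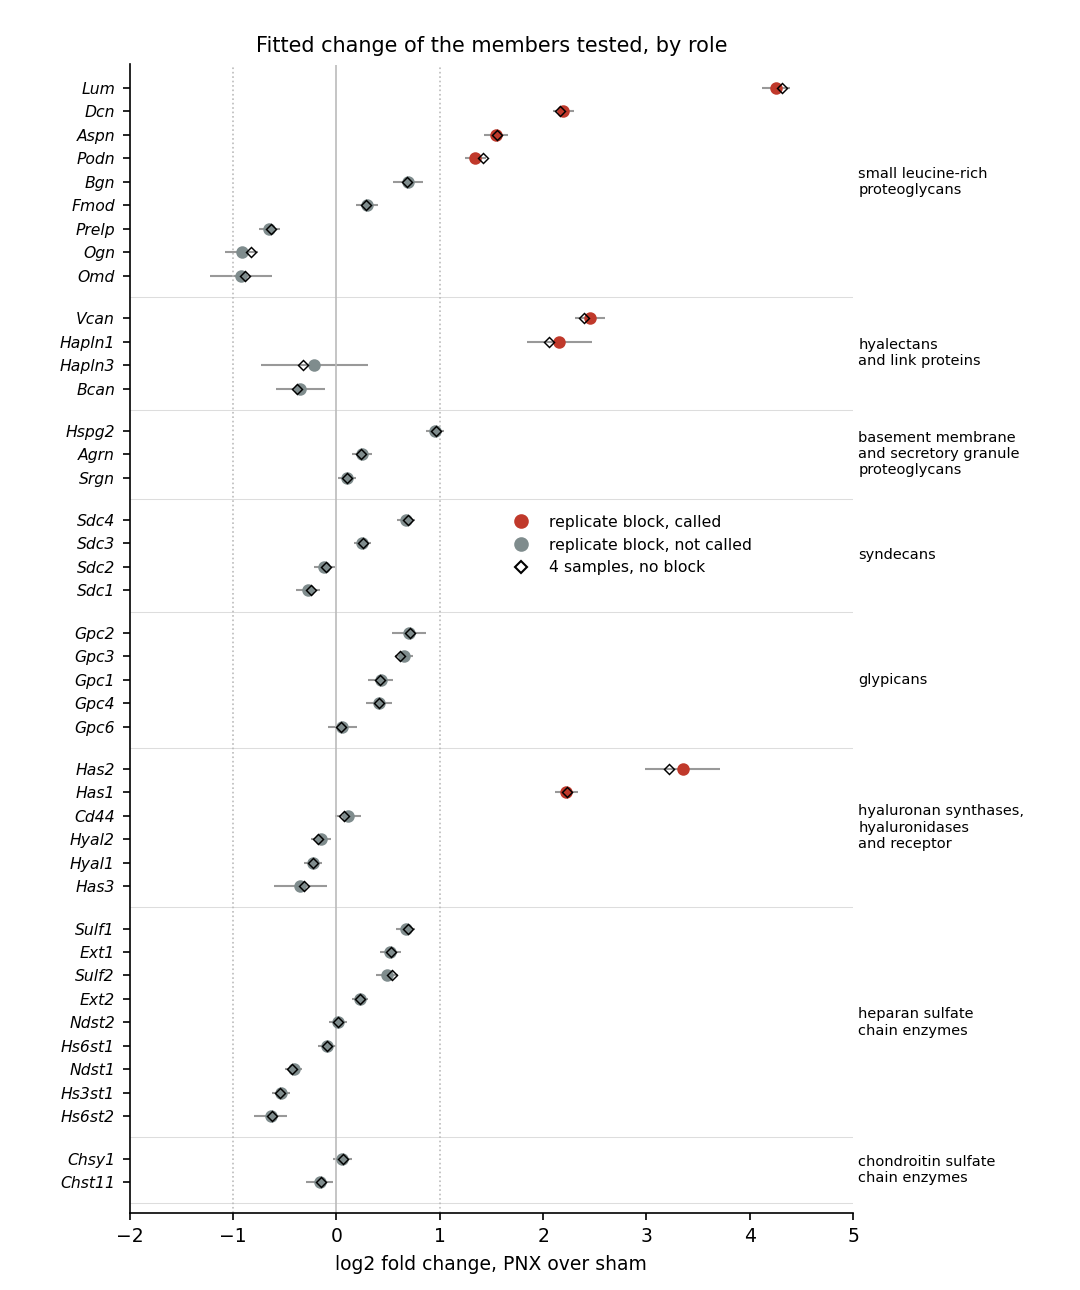
Fitted log2 fold change, PNX over sham, of the 42 members tested, grouped by role. Filled circles with bars are estimates ± SE with the deposit as a replicate block, red where called; open diamonds are estimates from the 4 samples without a block, and dotted lines mark a 2-fold change. The 8 called members lie between 1.34 and 4.25, and the heparan and chondroitin sulfate enzymes all lie between −0.63 and 0.67.

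The small leucine-rich proteoglycans bind collagen fibrils and set their thickness and spacing. Of the 9, 4 were called higher with the block and 0 lower (3 were lower at an unadjusted p under 0.05, and DESeq2 with the block called 0 lower). Lum encodes lumican, a keratan sulfate proteoglycan of collagen fibrils. Its level, as CPM (counts scaled to a common library size after TMM), was 0.993, 0.600 and 1.31 in sham replicates 1 to 3 and 15.7, 15.2 and 25.0 in PNX replicates 1 to 3. The lowest PNX library lay far above the highest sham library. Nested transcripts have nested counts in these files, as if reads that several transcripts share were counted on each, so CPM of Dcn, Aspn, Podn and Vcan, with several transcripts each, would hold such reads more than once, as would library totals. With the block the log2 fold change of Lum was 4.25 ± 0.14 (SE, edgeR adjusted p = 1.22e-05), and without it 4.31 ± 0.40 (adjusted p = 0.072). The raw counts were small in sham libraries, 80, 43 and 44, against 1168, 996 and 745 after PNX. The scaled ratio of counts was 19.1 (exact 95% interval 16.3 to 22.4, counting error only), and it was 19.1 in each deposit taken alone.

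Dcn encodes decorin, the dermatan sulfate proteoglycan that binds collagen and TGF-β. It stood at 78.0, 77.7 and 193 CPM in sham libraries and 386, 384 and 816 CPM after PNX. Replicate 3 was far above its group's other libraries on both sides, and the groups did not overlap. On the log2 scale the change was 2.19 ± 0.10 with the block (edgeR adjusted p = 2.26e-05) and 2.16 ± 0.58 without it (adjusted p = 0.246). Leaving out 1 library at a time without the block moved it from 1.51 (without PNX replicate 3) to 2.94 (without sham replicate 3). In the separate deposits the log2 ratio was 2.31 and 2.08. Dcn and Lum are neighbours on chromosome 10 (chr10:97479500-97518163 and chr10:97565501-97572703, GRCm38), 47.3 kb apart on the same strand.

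Aspn encodes asporin, a relative of decorin without a glycosaminoglycan chain. Its levels were 9.68, 8.40 and 6.18 CPM in sham libraries and 28.3, 30.8 and 15.7 CPM after PNX, and here replicate 3 was the lowest of each group. The log2 fold change was 1.54 ± 0.12 with the block (edgeR adjusted p = 1.82e-04) and 1.56 ± 0.38 without it (adjusted p = 0.214). Exons of Aspn overlap Cenpp, which runs on the opposite strand, and whether the counting used strand is not given in the sources used here. Cenpp itself held 49, 46 and 26 counts in sham and 193, 170 and 90 after PNX, so reads of the pair cannot be told apart with certainty. Podn encodes podocan, a small leucine-rich protein of the matrix. It stood at 40.2, 45.2 and 102 CPM in sham libraries and 98.4, 98.2 and 286 CPM after PNX. Sham replicate 3 lay above PNX replicates 1 and 2, so the groups overlapped, while within each deposit PNX was higher (log2 ratio 1.20 and 1.48). The fitted log2 fold change was 1.34 ± 0.10 with the block (edgeR adjusted p = 1.81e-04) and 1.42 ± 0.66 without it (adjusted p = 0.489). Without the block it was 0.44 without PNX replicate 3 and 2.17 without sham replicate 3.

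The other 5 were not called. Bgn, the most abundant member, stood at 412, 419.6 and 561 CPM in sham libraries and 822, 825 and 739 CPM after PNX. The groups did not overlap, but the difference was larger in the earlier deposit (log2 ratio 0.99) than in the later (log2 ratio 0.40), and at a log2 fold change of 0.69 ± 0.14 with the block (edgeR adjusted p = 0.0145) Bgn was not called. Ogn (osteoglycin) and Prelp, both matrix proteins of connective tissue, were lower after PNX in every library, with log2 fold changes of -0.92 ± 0.16 and -0.65 ± 0.10 with the block (edgeR adjusted p = 0.00714 and 0.00477). Both were within a 2-fold change and so not called. Omd, at 9 to 128 counts a library, had a log2 fold change of -0.93 ± 0.30 (edgeR adjusted p with the block = 0.0664), and Fmod, which encodes the collagen-binding fibromodulin, one of 0.30 ± 0.11. Aspn, Omd and Ogn stand in a row on chromosome 13 (chr13:49544443-49624501, GRCm38), with 14.9 and 15.4 kb between them, all inside the span of Cenpp. Across this stretch Aspn had a positive fold change, and Omd and Ogn negative ones. The 9 genes had a median log2 fold change of 0.69 with the block, beside the −0.01 of all genes.

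**Figure D3:**
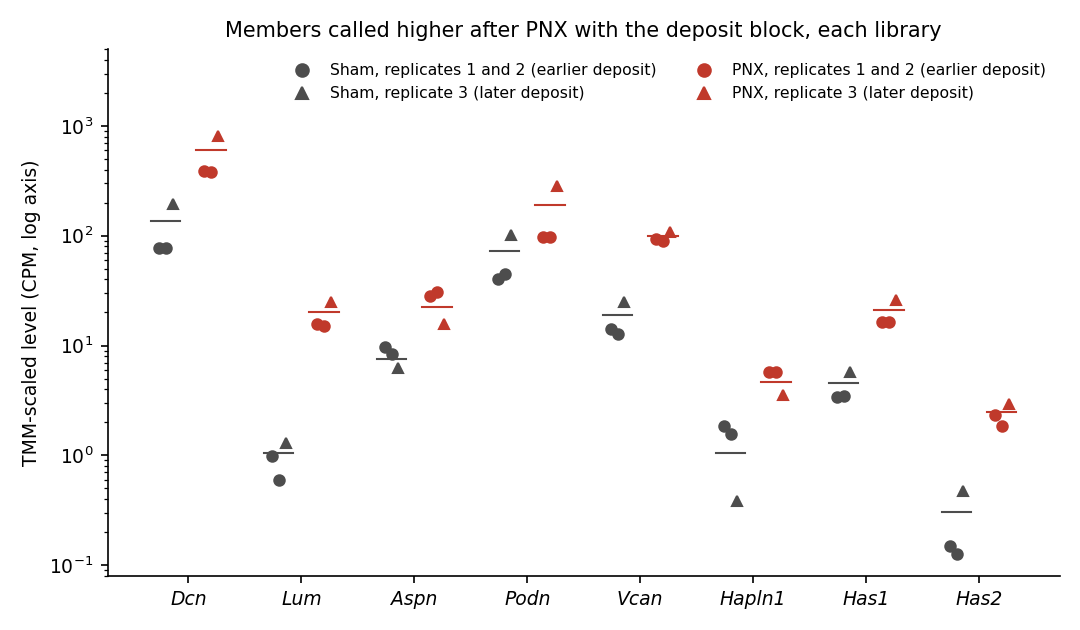
TMM-scaled level (CPM, log axis) of the 8 members called higher with the deposit block, for each library; grey is sham, red is PNX, circles are replicates 1 and 2, triangles are replicate 3, and bars are group means with replicates 1 and 2 counted as 1 sample. All 3 red points lie above all 3 grey points for each gene except Podn, whose sham replicate 3 (102 CPM) exceeds PNX replicates 1 and 2.

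Hyalectans are large chondroitin sulfate proteoglycans that bind hyaluronan, and link proteins lock that bond. Vcan encodes versican, the hyalectan of vessel walls and provisional matrix. It stood at 14.2, 12.8 and 24.7 CPM in sham libraries and 92.7, 90.5 and 108 CPM after PNX, with no overlap. The log2 fold change was 2.45 ± 0.14 with the block (edgeR adjusted p = 5.14e-05), 2.40 ± 0.32 without it (adjusted p = 0.0873) and 2.50 with 6 libraries (adjusted p = 0.00431). In summed counts of the longest transcript the scaled ratio was 6.02 (exact 95% interval 5.63 to 6.45, counting error only). It was 6.65 (6.14 to 7.21) in the earlier deposit and 4.47 (3.92 to 5.12) in the later. The size of the difference thus varied between deposits beyond counting error. Versican is made in forms that keep or skip 2 exons that carry most chondroitin sulfate chains, the alpha and the beta segment. Because counts in these files are nested like the transcripts, counts in a segment were read from the difference between nested transcripts. These are raw counts per kb, not scaled for library size, so libraries of unlike depth cannot be compared by them as levels. The beta segment (5217 bases) had 37.6, 32.8 and 27.6 counts per kb in sham and 219.7, 204.7 and 121 after PNX. For the alpha segment (2880 bases) these were 10.8, 7.64 and 5.21 in sham and 36.5, 40.6 and 15.3 after PNX. Both segments thus had more counts in every PNX library than in any sham library. The ratio of beta to alpha was 3.49, 4.29 and 5.30 in sham and 6.03, 5.04 and 7.90 after PNX, with sham replicate 3 above PNX replicate 2, so that the groups overlapped. The beta segment was counted about as densely as the fourth transcript, which holds neither segment (ratio 0.93 to 1.23 over the 6 libraries).

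Hapln1 encodes the hyaluronan and proteoglycan link protein that ties versican or aggrecan to hyaluronan. It lies 43.5 kb from Vcan on chromosome 13, on the opposite strand (chr13:89540529-89611832 and chr13:89655309-89743027, GRCm38). Its levels were 1.84, 1.56 and 0.386 CPM in sham libraries and 5.69, 5.76 and 3.55 CPM after PNX. The groups did not overlap, although sham replicate 3 rested on 13 counts. Its log2 fold change was 2.16 ± 0.32 with the block (edgeR adjusted p = 0.00379) and 2.06 ± 0.71 without it (adjusted p = 0.345). The scaled ratio of counts was 3.35 in the earlier deposit (exact 95% interval 2.91 to 3.87) and 9.21 in the later one (5.16 to 17.9), so the size of the difference varied between deposits beyond counting error. With the block, Hapln1 lost its call without sham replicate 2 or PNX replicate 1. Among the other 4 genes of the group, Bcan held 30 to 130 counts a library and Hapln3 held 4 to 13. Bcan and Hapln3 were tested, with log2 fold changes of -0.35 ± 0.24 and -0.21 ± 0.51 with the block. Acan held 1, 2 and 0 counts in sham and 1, 1 and 7 after PNX, and Ncan 3, 4 and 0 against 8, 4 and 0, and neither was tested.

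Hyaluronan is made by 3 synthases, and the 2 that rose here are different genes on different chromosomes. Has1 was found at 3.36, 3.45 and 5.70 CPM in sham libraries and 16.3, 16.4 and 25.9 CPM after PNX. The lowest PNX library lay well above the highest sham library. The log2 fold change was 2.23 ± 0.11 with the block (edgeR adjusted p = 2.70e-05), 2.23 ± 0.37 without it (adjusted p = 0.115) and 2.24 with 6 libraries (adjusted p = 0.00738), and the deposits gave log2 ratios of 2.27 and 2.18. Has2, the main synthase of the embryo, stood at 0.149, 0.126 and 0.475 CPM in sham libraries and 2.31, 1.84 and 2.92 CPM after PNX. It rested on 12, 9 and 16 counts in sham and 172, 121 and 87 after PNX, and the groups did not overlap. The log2 fold change was 3.35 ± 0.36 with the block (edgeR adjusted p = 0.00104) and 3.22 ± 0.67 without it (adjusted p = 0.168), and the scaled ratio of counts was 11.2 (exact 95% interval 8.02 to 16.2). By deposit the ratio for Has2 was 15.2 (9.75 to 24.9) in the earlier and 6.14 (3.58 to 11.2) in the later. An antisense gene, Has2os, overlaps its exons and had 2, 2 and 3 counts in sham and 25, 17 and 14 after PNX. Has3, the third synthase gene, was at most 1.74 CPM in any library, with a log2 fold change of -0.35 ± 0.25 with the block that did not pass the test.

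Hyal1, Hyal2 and Cd44, whose products cut or bind hyaluronan, did not pass the test in either direction. Hyal2, the cell-surface hyaluronidase, had the highest mean TPM of the 6 hyaluronan members over the 6 libraries. It stood at 118, 119 and 70.2 CPM in sham libraries and 97.9, 98.9 and 69.3 CPM after PNX. Replicate 3 was the lowest of each group and the groups overlapped. Its log2 fold change was -0.15 ± 0.097 with the block (edgeR adjusted p = 0.325) and that of the lysosomal Hyal1, whose exons overlap Hyal3 and Naa80 on the same strand, -0.22 ± 0.086. Without PNX replicate 3 and without the block Hyal2 had the opposite sign, at 0.047. Cd44, the hyaluronan receptor, had a log2 fold change of 0.11 ± 0.12 with the block.

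Of the basement membrane and granule proteoglycans, Hspg2 encodes perlecan, the heparan sulfate proteoglycan of vascular basement membranes. All 3 PNX libraries, at 155, 153 and 233 CPM, lay above the 3 sham libraries, at 81.2, 85.0 and 116 CPM. Its log2 fold change of 0.95 ± 0.087 with the block (edgeR adjusted p = 4.61e-04) lay just under the 2-fold rule. Agrn encodes agrin, with a log2 fold change of 0.25 ± 0.097. Srgn was level, at 211, 199 and 209 CPM in sham libraries and 230.3, 228 and 215 CPM after PNX. Although the groups did not overlap, the log2 fold change was 0.10 ± 0.086 and did not pass the test.

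Syndecans span the membrane and carry the heparan sulfate of the glycocalyx. With the block edgeR called 0 of the 4, 2 of them were higher at an unadjusted p under 0.05, and DESeq2 with the block called 0. Sdc3, the most abundant syndecan per length, stood at 167, 169 and 180.1 CPM in sham libraries and 197, 201 and 215 CPM after PNX. The groups did not overlap, but the difference was small, with a log2 fold change of 0.25 ± 0.084 with the block and 0.25 ± 0.14 without it. Sdc4, a focal adhesion syndecan, was higher by 0.67 ± 0.09 on the log2 scale (edgeR adjusted p with the block = 0.00258). Sdc1 and Sdc2 had values of -0.27 ± 0.12 and -0.11 ± 0.1, each negative in the later deposit and near 0 in the earlier.

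Glypicans are anchored to the outer membrane by a lipid and carry heparan sulfate near it. Of the 6, Gpc5 had 0 counts in every library and was not tested, and edgeR with the block called 0 of the other 5, of which 4 were higher at an unadjusted p under 0.05 and DESeq2 with the block called 0. Gpc3, by far the most abundant glypican per length, stood at 76.5, 78.8 and 210.0 CPM in sham libraries and 130.2, 135 and 305 CPM after PNX. Sham replicate 3 lay above PNX replicates 1 and 2, as with Podn, and the groups overlapped. Within deposits PNX was higher, with log2 ratios of 0.77 and 0.54, and the fold change with the block was 0.66 ± 0.09 (edgeR adjusted p = 0.00289). Without PNX replicate 3 and without the block its sign turned, to −0.12. Gpc1, Gpc2 and Gpc4, at 3.06 to 12.4 CPM, had positive log2 fold changes of 0.43 ± 0.12, 0.70 ± 0.17 and 0.41 ± 0.13, and all 3 PNX libraries were above all 3 sham libraries for each. Gpc6 was level at 0.057 ± 0.14. Gpc2 overlaps the exons of Gm43720 on the same strand.

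The enzymes that build, sulfate and trim heparan sulfate showed small values of both signs. With the block edgeR called 0 of the 9, with 4 higher and 3 lower at an unadjusted p under 0.05, DESeq2 called 0, and the median log2 fold change was 0.018. Sulf1 and Sulf2, which remove sulfate groups outside the cell, had log2 fold changes of 0.67 ± 0.089 and 0.49 ± 0.10 with the block. For both, sham replicate 3 lay above PNX replicates 1 and 2, so the groups overlapped, while within each deposit PNX was higher. Without the block the values were 0.69 ± 0.54 and 0.54 ± 0.42 (edgeR adjusted p = 0.699 and 0.695). Ext1 and Ext2, the polymerase that lengthens the chain, had 0.52 ± 0.099 and 0.23 ± 0.081. Of 4 genes for enzymes that add sulfate, Ndst1 had -0.41 ± 0.086 (edgeR adjusted p = 0.0152), Hs6st2 -0.63 ± 0.16 (adjusted p = 0.0303), Hs6st1 -0.091 ± 0.088 and Ndst2 0.018 ± 0.086, and none of these 4 passed the test. Hs3st1 makes the rare chain motif that binds antithrombin. Of the 9 enzymes it had the highest mean TPM over the 6 libraries, at 64.98 against 63.52 TPM for Ndst1. That rank did not hold after PNX, where the group means of Ext2, Sulf2, Ndst1 and Sulf1 lay above that of Hs3st1. Hs3st1 stood at 59.5, 56.6 and 39.9 CPM in sham libraries and 37.9, 38.9 and 29.0 CPM after PNX. Every PNX library lay below every sham library, if only just. For the fit this gave a log2 fold change of -0.53 ± 0.09 with the block (edgeR adjusted p = 0.00678) and -0.55 ± 0.26 without it (adjusted p = 0.495). Of the chondroitin sulfate enzymes, the sulfotransferase gene Chst11 stood at 54.7, 52.4 and 46.5 CPM in sham libraries and 40.0, 41.4 and 49.8 CPM after PNX. It was lower after PNX in the earlier deposit (log2 ratio -0.40) and not in the later (0.097), and its log2 fold change was -0.16 ± 0.13 with the block. Chsy1, which polymerises the chain, had 0.059 ± 0.089.

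If the 2-fold part of the rule is dropped, edgeR with the block placed 12 of the 42 members higher at an adjusted p under 0.01, against 6.22% of all genes, and 3 lower, against 3.32% of all genes. Added to the 8 were Hspg2, Sdc4, Gpc3 and Sulf1, and the 3 lower were Ogn, Prelp and Hs3st1. The lowest called member by size was Podn (1.34) and the member just under the 2-fold line was Hspg2 (0.95).

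**Figure D4:**
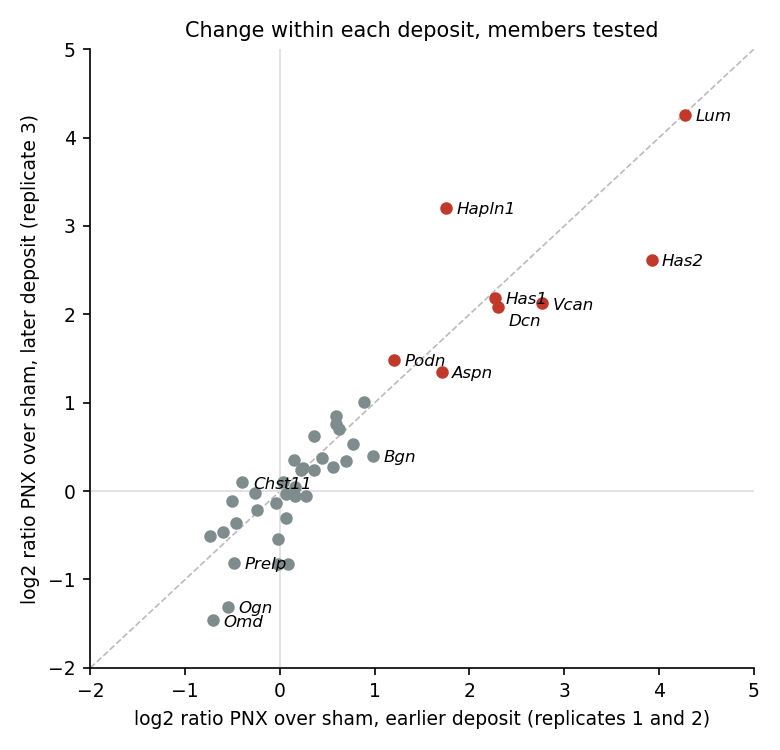
Log2 ratio of PNX over sham in the earlier deposit (replicates 1 and 2, horizontal axis) and in the later deposit (replicate 3, vertical axis) for the 42 members tested, red where called higher with the block; the dashed line marks equal ratios. The 8 red points are positive on both axes, Lum lies on the line, Hapln1 above it and Has2 below it, and Ogn, Omd and Prelp are negative on both axes.

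Other genes of the pathway were read from lists written by role, 93 genes of which 84 were tested. With the block edgeR called 7 of the 84 higher (8.33%, against 3.89% of all genes) and 1 lower (1.19%, against 1.23%). Without it edgeR called 0 (18, or 21.4%, at an unadjusted p under 0.05 against 12.5% of all genes, 8 by DESeq2 on the same samples, 0 by limma-voom). Of 13 other hyaluronan genes, 4 rose. Cemip, which encodes a hyaluronan-degrading protein, went from 0.447, 0.391 and 0.832 CPM in sham libraries to 3.58, 3.55 and 11.4 CPM after PNX (log2 fold change 3.38 ± 0.24, edgeR adjusted p = 1.20e-04). Hmmr encodes a hyaluronan receptor that is also a mitotic spindle protein, and went from 2.15, 2.12 and 3.92 to 23.6, 23.8 and 30.1 CPM (log2 fold change 3.23 ± 0.15, edgeR adjusted p = 2.09e-05). Tnfaip6, whose product moves heavy chains onto hyaluronan, and Itih5, one such heavy chain gene, had log2 fold changes of 1.45 ± 0.20 and 1.22 ± 0.20. Among 12 other core proteins 3 rose, Col15a1 (2.04 ± 0.086) and Col18a1 (1.32 ± 0.086), the basement membrane collagens that carry glycosaminoglycan chains, and Prg4 (1.83 ± 0.09), which encodes lubricin. Esm1, the endothelial dermatan sulfate proteoglycan endocan, was the 1 gene called lower, from 18.7, 17.9 and 15.7 CPM to 4.28, 4.06 and 5.10 CPM (log2 fold change -1.91 ± 0.16, edgeR adjusted p = 2.81e-04). The other lists, 6 small leucine-rich proteoglycans, 6 linkage enzymes, 13 further heparan sulfate enzymes, 14 chondroitin and dermatan sulfate enzymes, 12 lysosomal degradation enzymes and 8 genes of sugar and sulfate supply, had no call by edgeR with the block, with 18 genes higher and 12 lower at an unadjusted p under 0.05, and 1 lower by DESeq2 with the block. Their medians lay between −0.46 for the small leucine-rich proteoglycans and 0.33 for the lysosomal enzymes.

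Several of the 8 genes are known from fibroblasts, mesothelium and smooth muscle as well as from endothelium, and marker lists of the cells the beads could carry were read beside them. The 13 endothelial markers, all present, summed to 11082 to 13539 CPM in sham libraries and 9651 to 11018 CPM after PNX. The 12 fibroblast markers summed to 3919 to 4242 and 5636 to 6070 CPM, and 4 of the 12 were called higher with the block (Col1a1, Col1a2, Col3a1 and Mfap5) and 1 lower (Inmt). The rise of the sum lay in Col1a1, Col1a2 and Col3a1, at 123 to 306 CPM in sham and 626 to 1707 CPM after PNX. Npnt, the most abundant of the list, stood at 2200 to 2328 CPM in sham and 1251 to 2425 CPM after PNX. The median log2 fold change of the 12 was 0.64. The 7 not called ran from −0.49 for Pdgfra to 0.74 for Fbln1, with −0.37 for Npnt, −0.34 for Tcf21, 0.45 for Pi16, 0.58 for Dpt and 0.69 for Clec3b between them. Of 9 mesothelial markers 7 were tested, and their sum was 163 to 397 CPM in sham and 338 to 886 CPM after PNX, with 4 called higher. In each group this sum was highest in replicate 3, and so were the macrophage, adipocyte and cell division sums. Dcn, Podn, Lum, Vcan, Has1 and Has2 were also highest in replicate 3, while Aspn and Hapln1 were lowest there. The 12 smooth muscle and pericyte markers summed to 478 to 609.6 and 434 to 618 CPM, with 1 called higher, and the 10 macrophage markers found summed to 3279 to 6080 and 5717 to 6321 CPM, with 4 called higher. Mast cell markers summed to 464 to 642 and 426 to 519 CPM (3 of 7 called higher, Tpsb2, Cma1 and Mcpt4), and nearly all of that sum was Kit, which endothelium also expresses, at 451 to 634 CPM in sham and 396 to 504 CPM after PNX. Tpsb2, Cma1 and Mcpt4 were at most 0.505 CPM in any sham library and reached 5.23, 6.40 and 3.82 CPM after PNX. Adipocyte markers summed to 29.0 to 56.0 and 39.2 to 41.7 CPM (2 of 5 tested called higher, with 2 of 6 at 0 in a sham library), and Cidec carried most of that sum, at 28.6 to 55.5 CPM in sham and 24.9 to 39.0 CPM after PNX. The 2 called, Adipoq and Cfd, were at most 0.22 CPM in any sham library and reached 1.42 and 12.3 CPM after PNX. The chondrocyte list, cells that also make Hapln1 and Acan, summed to 4.13 to 4.81 and 4.51 to 4.93 CPM, with 4 of 7 at 0 in at least 1 sham library and edgeR calling 0 of the 4 tested. Alveolar type 2 markers summed to 5237 to 5740 and 1991 to 3396 CPM (3 of 6 called lower), type 1 markers to 1756 to 4466 and 709 to 3346 CPM (1 of 5 lower), and club cell markers to 2473 to 4520 and 1152 to 1204 CPM (5 of 5 lower). All 10 cell division markers were called higher, with sums of 73.1 to 132 and 634 to 952 CPM. The part of fibroblast, mesothelial and the other cells in the rise of the 8 members was not tested.

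**Figure D5:**
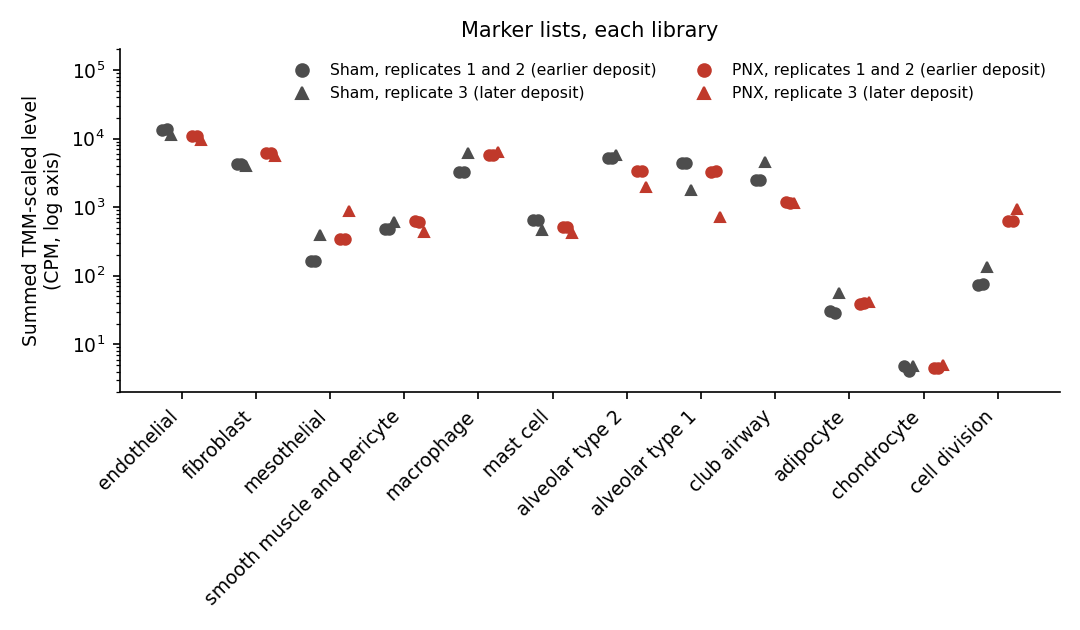
Summed TMM-scaled level (CPM, log axis) of each marker list in each library; grey is sham, red is PNX, circles are replicates 1 and 2 and triangles replicate 3. Fibroblast and cell division sums lie higher in all PNX libraries than in all sham libraries, the fibroblast rise lying in Col1a1, Col1a2 and Col3a1. Alveolar type 2 and club sums lie lower, and endothelial sums are the highest of all lists in both groups.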

How the data were processed

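Per the labels and methods, RNA of CD31-selected lung ECs was sequenced from stranded poly(A) libraries and aligned to mm10 (STAR is named in the submitters' processing notes). Per the methods, counting was done on the Basepair platform, with a counting rule and an annotation release that the sources used here do not state. The authors deposited, per library, whole-number counts of 33068 RefSeq transcripts with FPKM and TPM. The deposited FPKM served only to derive transcript lengths in bases for the Vcan segments. The deposited TPM served for levels per length and for the members' sums in each library, and entered no test.

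Counts were summed per symbol, and 16598 symbols passed filterByExpr. Replicates 1 and 2 of a group were summed. Across 13913 genes, later minus earlier levels in sham correlated with those in PNX (r = 0.734 by Pearson and rho = 0.745 by Spearman, a description, since the labels name the deposits), so the block is given beside each result. edgeR 4.0.16 (TMM, quasi-likelihood test) in R 4.3.3 was the main tool, and DESeq2 1.42.0 and limma 3.58.1 were alternatives. SE is the log2 fold change over the root of F. Intervals are Clopper-Pearson at 95% on the longest-counted transcript and cover counting error only. Positions are from RefSeq (GRCm38.p6), and exon overlaps from GENCODE vM21. Members, lists and alternatives were chosen with earlier results of these data known. Full values are given for members called in any of the 3 edgeR fits and the member with the highest mean TPM of each role.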

Additional observations from a re-analysis of the deposited data

How the results depend on the processing

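Pairing by deposit and the choice of tool set the number of calls, and the cause was not tested beyond the fits themselves. Without the block, edgeR called 0 members with DESeq2 size factors, library size alone, no filter, at least 10 counts in every library, the transcript with the highest total, or an adjusted p under 0.05. The separate tool limma-voom also called 0 members. With the replicate block edgeR called 849 genes, of which 8 members and 8 pathway genes. DESeq2 size factors with the block gave 624 genes (540 higher and 84 lower, against 645 and 204 with TMM) and 7 members, Hapln1 being lost. The transcript with the highest total and the block gave 727 genes and 8 members, and an adjusted p under 0.05 with the block 1186 and 8. As separate replicates, 6 libraries gave 409 genes and 3 members, with the block 1104 and 8, and replicates 1 and 2 alone 1203 and 8. DESeq2 called 587 genes and 6 members with 4 samples, 927 and 7 with 6 libraries, and 813 and 8 with the block.

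Leaving out 1 library gave 0 to 2 genes and 0 members without the block (2 genes without PNX replicate 3), where the lone sample is assumed to vary like the other group. With the block it gave 671, 668, 485 and 863 genes (without sham replicate 1, sham replicate 2, PNX replicate 1 and PNX replicate 2) and 7 to 8 members, Hapln1 being lost without sham replicate 2 or PNX replicate 1. With 6 libraries it gave 0 to 517 genes (49 without PNX replicate 2, 332 without PNX replicate 3, 517 without sham replicate 3) and 0 to 4 members, with 0 members without sham replicate 1 or 2 or PNX replicate 1 or 2, 4 without sham replicate 3 and 2 without PNX replicate 3. The members' median log2 fold change ranged from 0.084 (without PNX replicate 3) to 0.30 without the block, from 0.24 to 0.25 with it and from 0.12 to 0.26 with 6 libraries. Without PNX replicate 3 and without the block, the log2 fold change of Gpc3 was −0.12 and that of Hyal2 0.047, both of the opposite sign, and without sham replicate 3 they were 1.49 and −0.50. Replicates 1 and 2 alone, and leaving out libraries with the block or with 6 libraries, were chosen after seeing the data. Sham counts of Lum, Hapln1 and Has2 are low, which limits the precision of their ratios.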
